A study of Mus musculus with 11 samples.

Results

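The bodies of very long genes were examined, taken as the protein-coding genes of mouse chromosomes 1 to 19 that span at least 300 kb from start to end in the GENCODE vM1 annotation of mm9. Genes whose symbol begins with Pcdh, 3 in number, were left out. The rule gave 500 genes of 21418 annotated protein-coding genes, and for each of them the body was counted from 5 kb downstream of the transcription start site (TSS) to the gene end. Together the bodies spanned 277.2 Mb, 11.2% of the autosomal sequence. The rule itself uses length and name, not a measured level.

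Histone variants were mapped by chromatin immunoprecipitation and sequencing (ChIP-Seq) in 11 libraries, 1 for each condition. KH2 ES cells (129 X C57bl/6), which carry the M2rtTA transactivator at ROSA26, bore a doxycycline (Dox)-inducible HA-H3.3 or HA-MacroH2A2 cassette at Col1a1, and Dox was given at 2 µg/ml so that new tagged histone could be followed from its entry into chromatin. HA was precipitated after 3 and 6 h of Dox from HA-H3.3 ES cells, after no Dox and 3, 6 and 12 h from HA-MacroH2A2 ES cells, and after 3, 6 and 12 h from HA-MacroH2A2 fibroblasts (MEFs), which had been derived from chimeric embryos, selected in puromycin and used at passage 2. An antibody to MacroH2A2 itself was used on ES cells and on MEFs, which the labels call parental KH2 and wild type while the study's text names the HA-Macro lines, 1 library each in which 2 replicates are said to be combined. ES cells had been separated from their feeders by pre-plating. The files analysed here hold ChIP-Seq intervals only, so that RNA markers of ES cells and of MEFs were not looked up.

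MacroH2A variants carry a large globular domain behind their histone fold and are best known for their accumulation on silent chromatin, including the inactive X chromosome, whereas H3.3 is placed outside of replication at active promoters, enhancers and transcribed genes. Very long mammalian genes are enriched for genes of neurons, for cell adhesion molecules, ion channels and synaptic proteins, and most of their length is intron. Transcription of such a gene takes hours, and several of them lie in common fragile sites, which replicate late and break under replication stress.

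Between them the 11 libraries held 6488112 to 20541627 mapped intervals. Each identical interval was counted once, and 6280929 to 19279472 distinct intervals per library remained on the autosomes. The median body received 1075 to 3145 intervals in a library, so that counting error on 1 body was small (a log2 SD of 0.026 to 0.046) next to the spread between bodies (a log2 SD of 0.15 to 0.54). Counting error was larger for genes of 100 to 300 kb, a log2 SD of 0.045 to 0.114. Levels are midpoints of distinct intervals per kb per 1000000 distinct autosomal intervals, and an even spread over the autosomes would give 0.404. A level is thus relative to its own library and does not show the total amount of a histone in chromatin. The paper describes the HA signal without Dox as a mostly flat background with traces at promoters. Levels without Dox are therefore not read as an amount of tagged histone. With 1 library for each condition there was no replicate spread to test against. Bodies are therefore described by their ratios, by the number past 1.3-fold, and by the share of the 2276 protein-coding genes of at least 100 kb (the long genes included) that pass the same fold, and the 95% binomial intervals given for single genes cover counting error only. The HA-Macro ES library at 3 h stood apart, with 0.111% of its distinct intervals on chromosome Y against 0.0219% to 0.0244% in the other HA-Macro ES libraries. The share was 0.0673% for HA-H3.3 at 6 h, 0.102% for HA-H3.3 at 3 h and 0.1% for anti-MacroH2A2 in ES cells. The ES time course is also given with the 6 h library in its place.

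The genes ran from 300.5 kb to 4434.9 kb with a median of 438.6 kb, and 47 were 1 Mb or longer. Their bodies were poorer in G+C than those of the 1776 genes of 100 to 300 kb (median 41.0% against 42.8%), poorer in CpG (7.28 against 9.08 per kb) and poorer in exons (1.67% against 4.23% of bases). In all, 9 bodies had assembly gaps over more than 5% of their length, among them Rasgrf2 (74.7%) and Msi2 (11.9%), which lowers their levels. No other protein-coding gene started inside 399 of the 500 genes, while a neighbouring gene reached into the 100 kb flanks of 355. Start sites here and below are 1 per annotated gene, so that alternative starts of the same gene were not counted. The 5 longest were Gm20388 (4435 kb, chromosome 8), Fgfr2 (3009 kb, chromosome 7), Ptprd (2271 kb, chromosome 4), Cntnap2 (2241 kb, chromosome 6) and Lrp1b (2058 kb, chromosome 2). The first 2 of these are annotations that run across other genes, with 73 and 31 other protein-coding start sites inside, so that their levels are not those of a single transcription unit. Ptprd encodes a receptor tyrosine phosphatase, Cntnap2 a neurexin-like adhesion protein and Lrp1b a very large receptor of the LDL receptor family, with 1, 1 and 0 other start sites inside.

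Few windows inside the bodies held many midpoints, and 3 of the 4 highest windows described here were made of short tandem repeats. Bodies were tiled into 300-base windows without exons and outside the 1% of 100 kb tiles highest without Dox, which gave 856462 windows. These had a mean of 0.98 midpoints for HA-H3.3 at 6 h and 1.72 for anti-MacroH2A2 in MEFs. All but the top 1% of windows held at most 6 midpoints in the former library and 7 in the latter. The 2 windows with the most midpoints in each of these libraries, at most 1 per gene, are shown because they mark where a local peak in a long intron can come from, followed by the richest HA-H3.3 window of Macf1, the gene with the lowest HA-Macro ES 12 h over 3 h ratio, a window chosen after its values were seen. All are read on the strand of their gene from mm9, lie in introns, and have CG dinucleotides in capitals. The Camta1 windows are chr4:150699686-150699985 and chr4:150650486-150650785 (minus strand), the Gm20388 window is chr8:125865141-125865440 (plus strand), the Pdzd2 window is chr15:12561780-12562079 (minus strand) and the Macf1 window is chr4:123302004-123302303 (minus strand).
Camta1, HA-H3.3 ES 6 h: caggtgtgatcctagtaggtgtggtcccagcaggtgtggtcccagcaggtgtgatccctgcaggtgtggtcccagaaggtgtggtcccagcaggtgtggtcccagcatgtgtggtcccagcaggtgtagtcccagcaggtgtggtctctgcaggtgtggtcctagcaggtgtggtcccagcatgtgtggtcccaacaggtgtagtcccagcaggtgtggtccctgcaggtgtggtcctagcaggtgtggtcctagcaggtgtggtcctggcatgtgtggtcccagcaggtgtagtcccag
Gm20388, HA-H3.3 ES 6 h: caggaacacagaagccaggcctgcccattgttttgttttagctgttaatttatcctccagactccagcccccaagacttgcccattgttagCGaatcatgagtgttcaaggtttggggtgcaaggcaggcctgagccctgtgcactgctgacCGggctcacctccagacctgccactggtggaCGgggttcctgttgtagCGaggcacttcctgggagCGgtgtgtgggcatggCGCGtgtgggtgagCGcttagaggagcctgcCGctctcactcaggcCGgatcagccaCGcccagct
Camta1, anti-MacroH2A2 MEF: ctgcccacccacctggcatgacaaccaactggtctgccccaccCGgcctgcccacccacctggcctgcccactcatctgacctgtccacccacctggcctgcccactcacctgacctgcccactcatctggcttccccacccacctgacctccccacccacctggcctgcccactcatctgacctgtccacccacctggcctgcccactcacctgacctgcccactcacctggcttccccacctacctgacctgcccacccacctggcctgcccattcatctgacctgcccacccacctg
Pdzd2, anti-MacroH2A2 MEF: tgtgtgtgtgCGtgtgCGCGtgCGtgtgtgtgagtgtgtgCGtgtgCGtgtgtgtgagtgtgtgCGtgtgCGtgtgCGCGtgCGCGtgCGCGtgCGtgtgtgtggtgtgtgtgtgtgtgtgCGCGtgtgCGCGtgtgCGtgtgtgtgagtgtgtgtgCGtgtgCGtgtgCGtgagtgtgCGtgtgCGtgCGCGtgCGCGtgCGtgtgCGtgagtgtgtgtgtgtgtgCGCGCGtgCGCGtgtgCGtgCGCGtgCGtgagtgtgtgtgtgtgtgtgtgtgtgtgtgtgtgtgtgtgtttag
Macf1, HA-H3.3 ES 6 h: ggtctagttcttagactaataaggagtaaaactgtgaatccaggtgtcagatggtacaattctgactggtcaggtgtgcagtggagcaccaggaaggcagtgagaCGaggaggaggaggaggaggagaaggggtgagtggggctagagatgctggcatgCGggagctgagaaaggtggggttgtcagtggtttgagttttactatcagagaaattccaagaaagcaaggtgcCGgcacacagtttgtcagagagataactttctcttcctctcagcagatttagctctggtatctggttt

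The first Camta1 window, 536.0 kb into the gene of a calmodulin-binding transcription activator, is a run of near-identical short units with no CG. It held 60 midpoints of HA-H3.3 at 6 h and 52 of anti-MacroH2A2 in MEFs, and 7 without Dox against a mean of 1.36 midpoints per window in that library. The second, 585.2 kb into the same gene, is another short repeat with 1 CG. It held 99 midpoints of anti-MacroH2A2 in MEFs, 22 in ES cells, 56 of HA-Macro in MEFs at 12 h and 1 of HA-H3.3 at 6 h. The first Camta1 window thus held many midpoints of both variants, and the second held H3.3 only at the mean of all windows. The Pdzd2 window, 107.6 kb into the gene of a PDZ-domain scaffold, is a run of tg and CG steps with 40 CG, a number reached by 0.00397% of the windows. It held 64 midpoints of anti-MacroH2A2 in MEFs, 52 and 49 of HA-Macro at 12 h in ES cells and in MEFs, and 5 without Dox. Reads that fitted several places had been placed at 1 of them at random, so that counts in such repeats are less certain than elsewhere.

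The remaining pair of windows is not built of repeats. In Gm20388, 8.53 kb from the nearest annotated protein-coding start site (Spire2, an actin nucleator), the window held 48 midpoints of HA-H3.3 at 6 h, 2 of anti-MacroH2A2 in ES cells, 11 in MEFs and 2 without Dox, and its 11 CG are reached by 0.631% of windows. In Macf1, 59.3 kb inside the gene, the window held 30 midpoints of HA-H3.3 at 6 h, 13 at 3 h, 7 of HA-Macro ES at 3 h, 1 and 3 of anti-MacroH2A2 in ES cells and MEFs, and 0 without Dox, with 3 CG. Both were chosen for their H3.3 midpoints, which favours H3.3 over MacroH2A2 in them.

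In all 11 libraries the median level of the long bodies lay below the 0.404 of an even spread and just below that of the typical 100 kb tile. The median level was 0.359 for HA-H3.3 at 3 h and 0.287 at 6 h, the lowest of any library. HA-Macro in ES cells gave 0.40 without Dox and 0.330, 0.349 and 0.349 after 3, 6 and 12 h, and HA-Macro in MEFs gave 0.341, 0.357 and 0.354 after 3, 6 and 12 h. Anti-MacroH2A2 gave 0.381 in ES cells and 0.385 in MEFs. The median tile stood at 0.298 for HA-H3.3 at 6 h, 0.375 for HA-Macro ES 12 h, 0.376 for HA-Macro MEF 12 h and 0.398 for anti-MacroH2A2 in MEFs. The share of all autosomal intervals that fell in the bodies was 8.99% for HA-H3.3 at 6 h and 10.1% to 11.2% in all the other libraries, beside the 11.2% of sequence that the bodies make up.

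Genes of 100 to 300 kb stood higher in every ES library, and in MEFs the medians lay close together. Their medians were 0.446 and 0.414 for HA-H3.3 at 3 and 6 h, 0.466, 0.420 and 0.407 for HA-Macro ES at 3, 6 and 12 h, and 0.413 for anti-MacroH2A2 in ES cells, each above the median of the long genes in that library. In MEFs the antibody to MacroH2A2 gave 0.364 for the shorter genes and 0.385 for the long ones, and HA-Macro 0.334 against 0.341 at 3 h, 0.360 against 0.357 at 6 h and 0.344 against 0.354 at 12 h. The spread among long bodies was least without Dox, where the 5th to 95th percentiles ran from 0.355 to 0.453, and greatest for HA-H3.3 at 6 h, from 0.206 to 0.571.

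**Figure D1:**
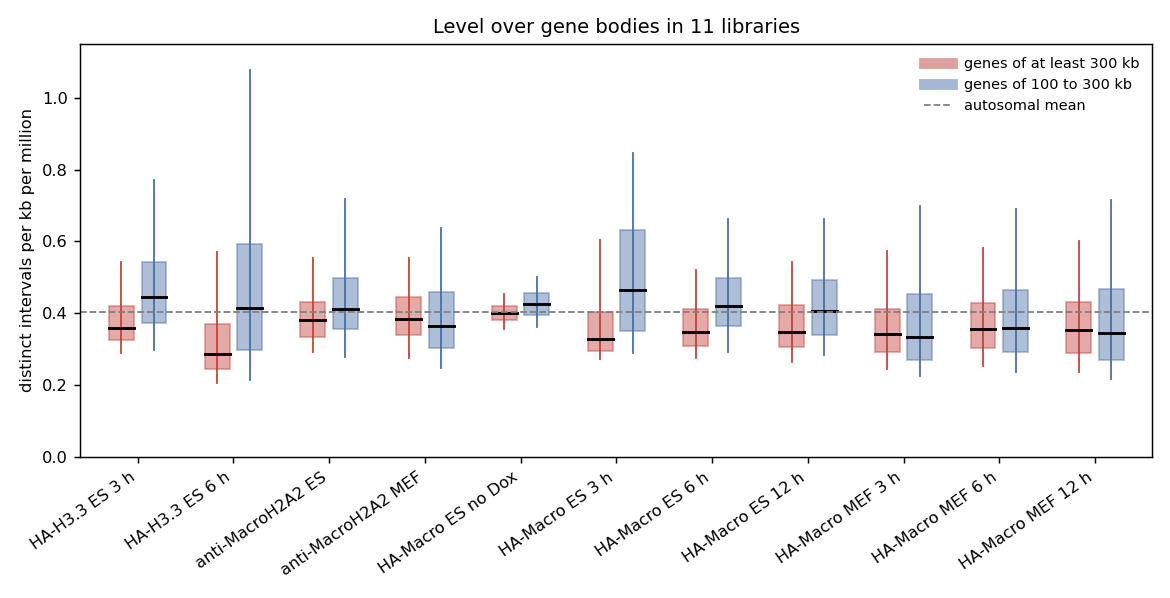
Level over gene bodies (vertical axis, distinct intervals per kb per 1000000 distinct autosomal intervals) in each of the 11 libraries for the 500 genes of at least 300 kb and the 1776 genes of 100 to 300 kb. Boxes span the quartiles, black bars are medians and lines run from the 5th to the 95th percentile over genes; the long genes lie lowest for HA-H3.3 at 6 h (median 0.287) and below the shorter genes in every ES library.

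Within the 500 genes most libraries had lower levels in the longer classes. The 314 genes of 300 to 500 kb, the 139 of 500 kb to 1 Mb and the 47 of 1 Mb or more had median HA-H3.3 levels at 6 h of 0.299, 0.270 and 0.249, and HA-Macro ES 12 h levels of 0.354, 0.347 and 0.313. HA-Macro MEF 12 h gave 0.357, 0.343 and 0.329 and anti-MacroH2A2 in ES cells 0.385, 0.370 and 0.350, while anti-MacroH2A2 in MEFs gave 0.381, 0.391 and 0.381. Median G+C fell over the same classes, from 41.4% to 40.6% and 39.2%, and the parts of length and of base composition in these levels were not tested. The longest annotation, Gm20388, at 51.1% G+C, had 0.944 for HA-H3.3 at 6 h, 0.897 for HA-Macro ES 12 h and 0.560 without Dox, whereas Ptprd (37.0% G+C) had 0.222, 0.264 and 0.377, and Lrp1b (36.3% G+C) 0.236, 0.285 and 0.406.

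Levels went with base composition in all libraries but that without Dox. Across the 500 bodies, Pearson's r between G+C and log2 level was 0.81 for HA-Macro ES 12 h, 0.67 for anti-MacroH2A2 in ES cells, 0.56 for HA-Macro MEF 12 h, 0.52 for HA-H3.3 at 6 h and 0.41 for anti-MacroH2A2 in MEFs, and 0.07 without Dox. In the 125 bodies lowest in G+C (34.7% to 38.7%), the median HA-Macro ES 12 h level was 0.293, against 0.454 in the 125 bodies highest in G+C (43.3% to 51.8%). Without Dox the same groups had 0.407 and 0.408. These correlations describe genes that share 1 library and are not independent replicates.

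Consequently the ratio of HA-Macro ES 12 h to no Dox sorted the bodies largely by G+C (Pearson's r = 0.90, Spearman's rank correlation 0.91, n = 500). Its median was -0.18 on the log2 scale, with 124 of 500 bodies more than 1.3-fold lower and 23 higher, where 18.5% of all genes of at least 100 kb were lower and 10.5% higher. Of the 124, 99 lay among the 125 bodies lowest in G+C, and all 23 that were higher lay among the 125 richest in G+C. Shorter genes were sorted likewise. Of those of 100 to 300 kb in the same lowest range of G+C 171 of 208 were lower, and in the highest range 207 of 778 were higher. Scaling each library to its median 100 kb tile moved all of these ratios up by 0.122. The median of the long bodies was then -0.06, with 11.4% of them lower and 10.6% higher. The share of intervals was smaller at 12 h than without Dox for, among others, Ptprd (-0.52), Lrp1b (-0.51), Cadm2 (-0.64) and Gphn (-0.74). Cadm2 is a synaptic adhesion molecule and Gphn the gephyrin that anchors inhibitory receptors. Cdh23, a cadherin of hair cell bundles, was at 0.65.

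Relative to each library, new H3.3 was lower over most long bodies at 6 h than at 3 h of Dox. The median log2 ratio was -0.33, 191 of 499 bodies with enough intervals (200 over both libraries) were more than 1.3-fold lower and 9 were higher, beside 24.2% lower and 9.73% higher among all genes of at least 100 kb. This fall depended on the scaling. When each library was scaled to its median 100 kb tile, which moves every ratio up by 0.303, the median was -0.03, 0.401% of bodies were lower and 9.42% higher, so that the fall is one relative to the autosomal mean and not to the typical tile. The genes of 100 to 300 kb had a median of -0.08, and Msi2 (0.69), an RNA-binding protein of stem cells, and Macf1 (0.62), a spectraplakin linking actin and microtubules, had more H3.3 at 6 h than at 3 h.

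Over the ES time course the HA-Macro level of most long bodies, relative to each library, moved little. From 3 to 12 h the median log2 ratio was 0.06, with 66 of 500 bodies more than 1.3-fold lower and 44 higher, beside 30.9% lower and 11.1% higher among all genes of at least 100 kb. The genes of 100 to 300 kb had a median of -0.08, with 638 of 1776 lower. Scaling to the median tile moved the ratios down by 0.126, so that the median of the long genes changed sign to -0.06 and 2.0% of them were higher. With the 6 h library in place of the 3 h library, which stands apart, no body passed 1.3-fold in either direction and the median was 0.00, beside 0.439% lower and 0.0% higher. All of these calls thus rested on the 3 h library. From 3 to 6 h the median was 0.06, with 41 lower and 9 higher, beside 25.4% and 4.04%. At 3 h against no Dox, again with the library that stands apart, it was -0.25, with 144 lower and 41 higher, beside 14.1% and 28%, and the shorter genes had a median of 0.12 with 597 higher.

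Macf1 (chr4:123026876-123361603, minus strand) had the lowest ratio. Its HA-Macro level in ES cells was 0.463 without Dox and 0.864, 0.456 and 0.389 after 3, 6 and 12 h, a 12 h over 3 h ratio of -1.15 (-1.23 to -1.08) on the log2 scale and -0.23 (-0.31 to -0.14) over 6 h. New H3.3 stood at 0.681 and 1.05 on the same gene, and MEFs had 0.254, 0.293 and 0.250 of HA-Macro. The 3 h library alone was high for HA-Macro, and in MEFs the gene lay below the autosomal mean at each time. Ranbp17 (chr11:33111794-33413746, minus strand), a RAN-binding transport receptor, had 0.492 without Dox and 0.746, 0.404 and 0.357 at 3, 6 and 12 h, a ratio of -1.06 (-1.15 to -0.98). Stag1 (chr9:100498217-100858964, plus strand), a cohesin subunit, had 0.477 without Dox and 0.633, 0.370 and 0.314, a ratio of -1.01 (-1.09 to -0.93). Msi2 (chr11:88152884-88579827, minus strand), the carrier of the highest H3.3 level among the 66 bodies (1.11 at 6 h), had 0.388 and then 0.765, 0.473 and 0.395, a ratio of -0.95 (-1.02 to -0.88).

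The 4 bodies that gained most were those of Tshz2, a zinc finger homeobox protein, Cdh23, Zbtb7c, a BTB zinc finger protein, and Cdh13, a cadherin anchored by a lipid. Tshz2 (chr2:169458671-169897316, plus strand) had 0.421, 0.60 and 0.652 of HA-Macro at 3, 6 and 12 h, a ratio of 0.63 (0.56 to 0.70). Cdh23 (chr10:59765496-60159238, minus strand) had 0.493, 0.636 and 0.745, a ratio of 0.60 (0.53 to 0.66). The step from 6 to 12 h was 0.12 for Tshz2 and 0.23 for Cdh23, so that most of the gain lay between the 3 h and the 6 h libraries. Zbtb7c was at 0.58 (0.51 to 0.66), with 0.466, 0.688 and 0.698, and Cdh13 (chr8:120807633-121848821, plus strand) at 0.56 (0.52 to 0.61), with 0.379, 0.514 and 0.560.

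**Figure D2:**
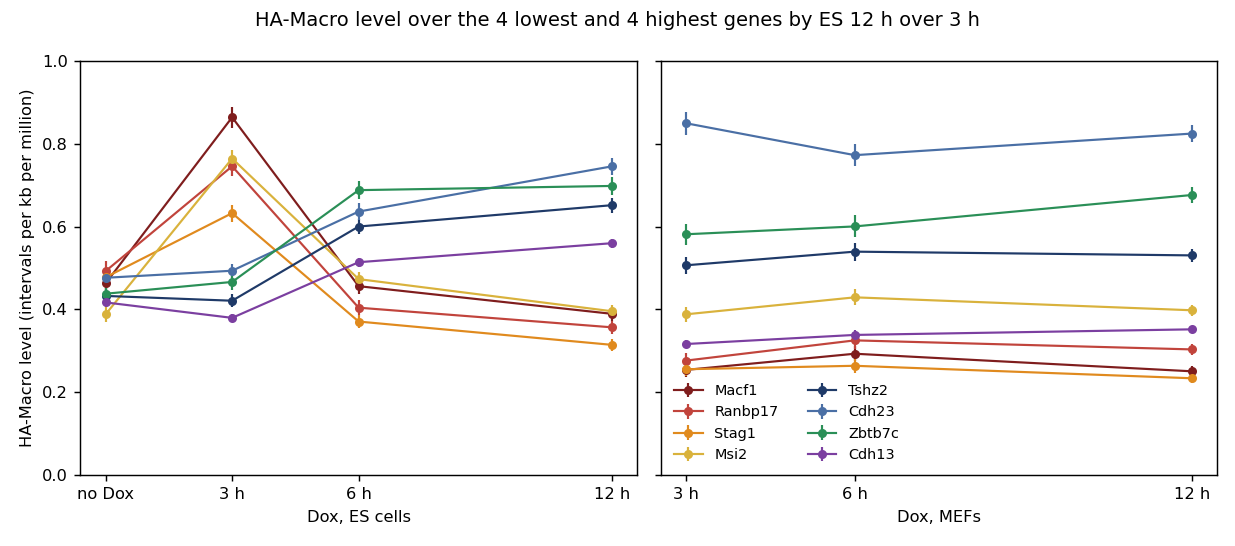
HA-Macro level (vertical axis, distinct intervals per kb per 1000000) against hours of Dox for the named bodies with the lowest and highest ES 12 h over 3 h ratio, in ES cells and MEFs. Error bars are 95% limits from Poisson counting error; Macf1 goes from 0.864 at 3 h to 0.389 at 12 h in ES cells and stays between 0.250 and 0.293 in MEFs.

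Bodies past the fold from 3 to 12 h had higher medians of new H3.3 than those within it, the lower ones most. The 66 had a median HA-H3.3 level at 6 h of 0.465 (quartiles 0.371 to 0.567), against 0.264 (0.236 to 0.318) for the 390 that passed the fold in neither direction and 0.364 (0.309 to 0.446) for the 44 that were higher. Over all 500 bodies the relation was weak: the log2 HA-H3.3 level at 6 h correlated with the 12 h over 3 h ratio at r = -0.30 (Spearman's rank correlation -0.08) and with the 12 h over 6 h ratio at r = -0.20 (-0.12). By their labels the HA-H3.3 and HA-Macro libraries are from different lines. At 3 h of Dox the median H3.3 levels were closer, 0.451 for the 66, 0.431 for the 44 and 0.343 for the 390. In the HA-Macro ES library at 3 h the 66 had 0.555, falling to 0.366 at 12 h. The genes of 100 to 300 kb gave the same order, 0.569 for the 638 that were lower, 0.316 for the 929 that passed in neither direction and 0.404 for the 209 that were higher. Median G+C was 41.8%, 40.4% and 45.0% in the lower, unmoved and higher long bodies. Across all 500 bodies the log2 level of HA-H3.3 at 6 h correlated with that of HA-Macro ES at 3 h at r = 0.82 and of HA-Macro ES at 12 h at r = 0.66. Of these 2 HA-Macro libraries the 3 h one, which stands apart in its share of chromosome Y, was the nearer to HA-H3.3, and its part in these values was not tested.

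**Figure D3:**
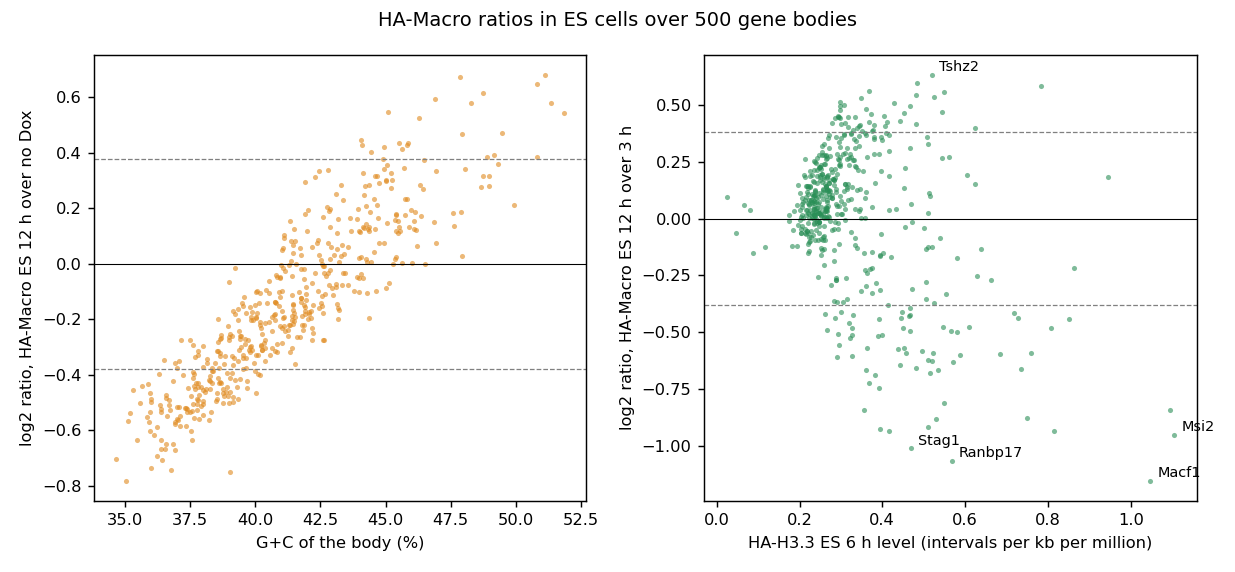
Log2 ratios (vertical axes) of the 500 bodies, 1 point each, with dashed lines at 1.3-fold: on the left HA-Macro ES 12 h over no Dox against the G+C of the body in % (r = 0.90), on the right 12 h over 3 h against the HA-H3.3 level at 6 h in intervals per kb per 1000000. On the right the bodies below the lower line had a median HA-H3.3 level of 0.465 and those between the lines 0.264.

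In MEFs the HA-Macro level of the long bodies, relative to each library, was steady. Between 3 and 12 h no body passed 1.3-fold, with a median of 0.02, beside 0.176% higher and 0.0% lower among all genes of at least 100 kb. The log2 levels at 3 and 12 h correlated at r = 0.98, against 0.64 in ES cells between the same times and 0.94 between 6 and 12 h. Between 6 and 12 h no long body passed the fold either, beside 0.264% lower and 0.0% higher. Macf1 was at -0.02 (-0.14 to 0.10) in MEFs, Stag1 at -0.13, Msi2 at 0.04, Tshz2 at 0.07, Cdh23 at -0.04, Zbtb7c at 0.22 and Cdh13 at 0.15.

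The relative level of steady-state MacroH2A2 passed 1.3-fold between MEFs and ES cells on few long bodies. The paper reports more MacroH2A2 in MEFs than in ES cells, and levels scaled to each library do not show such a difference in total amount. The anti-MacroH2A2 ratio had a median of 0.04, with 29 of 499 bodies more than 1.3-fold lower in MEFs and 27 higher, beside 22.9% lower and 4.5% higher among all genes of at least 100 kb. The 1746 shorter genes with enough intervals had a median of -0.20 and 486 that were lower. By length class the medians of the long genes were -0.01, 0.08 and 0.16, and 28 of the 29 lower bodies were under 500 kb, as were 314 of all 500. G+C fell over the same classes. The ratio correlated with G+C at r = -0.35 and with log2 length at r = 0.23, and their parts were not tested. Tile scaling moved these ratios by 0.05, to a median of -0.01, so that the sign of so small a median is not fixed, and left 9.02% lower.

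HA-Macro at 12 h, from cells that carry the tagged variant, gave more calls. Its MEF over ES ratio had a median of -0.02, with 81 of 500 lower and 70 higher, beside 35.2% lower and 12.3% higher. At 3 h it was 0.05, with 103 lower and 92 higher beside 43.5% and 17.4%, a contrast that uses the ES library that stands apart. The ratio at 6 h was not computed. The antibody and the tag shared 20 lower bodies, 69.0% of the 29 and 24.7% of the 81, and 23 higher bodies, 85.2% of the 27 and 32.9% of the 70, and none passed the fold in opposite directions. Across bodies the 2 ratios correlated at r = 0.74 (Spearman's rank correlation 0.76). The overlap was not counted among shorter genes.

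Among the highest antibody ratios were 3 genes inside 1 stretch of chromosome 3. Med12l, a paralogue of a Mediator subunit, was at 1.21 (1.07 to 1.35), Schip1, a partner of schwannomin, at 0.90 (0.80 to 1.00) and Rsrc1, a splicing-related protein, at 0.84 (0.68 to 1.01), while HA-Macro at 12 h gave 0.47, -0.23 and -0.34. All lie in chr3:57200001-71300000, where the anti-MacroH2A2 ES library had a median tile level of 0.185 against 0.357 on the rest of the chromosome, whereas the ratio of inside to outside was 0.991 to 1.03 in the other 10 libraries. Without these genes 4.84% of 496 bodies were higher and 5.85% lower.

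The next highest, 1700112E06Rik (chr14:22838934-23875307, plus strand), an annotated gene of undescribed product, had 0.703 in MEFs and 0.398 in ES cells by the antibody, a ratio of 0.82 (0.77 to 0.88), and 0.734 against 0.322 of HA-Macro at 12 h, a ratio of 1.19. Hdac9, a histone deacetylase, had 0.489 and 0.338 by the antibody (0.53) and 0.540 and 0.277 of HA-Macro at 12 h (0.96). Cadm1, an adhesion molecule, had 0.587 and 0.389 by the antibody (0.59) and 0.560 and 0.352 of HA-Macro (0.67). In these genes the 2 kinds of measurement went the same way.

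Arid1b (chr17:4994332-5347656, plus strand), a subunit of the BAF remodelling complex, had the lowest antibody ratio among bodies with enough intervals. Its levels were 0.360 in MEFs and 0.554 in ES cells, a ratio of -0.62 (-0.72 to -0.52), and 0.337 against 0.488 of HA-Macro at 12 h (-0.53). AF064781 was at -0.61 (-0.72 to -0.50) by the antibody and -0.77 by HA-Macro, and Agap1, a GTPase-activating protein for ARF, at -0.59 (-0.67 to -0.50) and -0.47. BB287469, at -0.61 (-0.84 to -0.38), had levels of only 0.080 in MEFs and 0.122 in ES cells, against 0.367 for HA-Macro without Dox. The 29 lower bodies had a median HA-H3.3 level at 6 h of 0.507, against 0.284 for the 443 in neither direction and 0.274 for the 27 that were higher. Median G+C was 44.4%, 40.8% and 41.5% in the same order, and its part in these values was not tested.

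**Figure D4:**
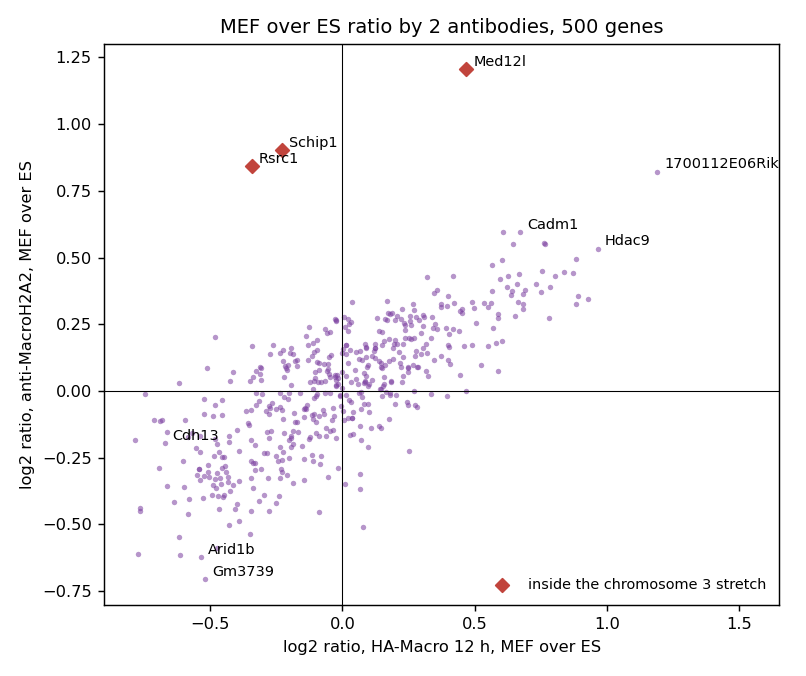
MEF over ES ratio (log2) of anti-MacroH2A2 against that of HA-Macro at 12 h, 1 point for each of the 500 bodies, with red diamonds for the 3 genes of the chromosome 3 stretch. The 2 ratios rise together (r = 0.74), apart from genes of the chromosome 3 stretch such as Rsrc1, at 0.84 by the antibody and -0.34 by HA-Macro.

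Grouped by the role of their products, 261 of the 500 genes fell in at least 1 of 13 lists. For all lists, the background to read counts against is that of the genes of at least 100 kb, 30.9% lower and 11.1% higher for ES 12 h over 3 h, and 22.9% lower and 4.5% higher for the antibody in MEFs over ES cells. For HA-Macro at 12 h in MEFs over ES cells the background is 35.2% lower and 12.3% higher. Values of the lists in MEFs over ES cells are by the antibody unless HA-Macro is named. The lists were drawn up with earlier results of these data known. Genes listed under broad cell roles had the median farthest from 0 over the ES time course, -0.38, with 19 of 37 lower at 12 h than at 3 h and 1 (Akap6) higher. Named after their values were seen, Diap3, a formin, was at -0.93, Exoc4 and Exoc6b, subunits of the exocyst, at -0.92 and -0.72, and Vps13b, a Golgi protein, at -0.84. With 6 h as the early time no gene of this or any other list passed the fold, and the median was -0.12. The list had a median HA-Macro ES level of 0.494 at 3 h and 0.370 at 12 h. By the antibody 6 of the 37 were lower in MEFs than in ES cells and 0 higher, with a median of -0.23. Gphn was nearest that median, and Arid1b had the lowest ratio of the list.

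Lists of neuronal genes had ES time course medians close to the 0.06 of all 500 bodies. Of 34 neuronal adhesion genes, 1 was higher and 2 were lower from 3 to 12 h in ES cells (median 0.06), 1 was higher and 0 lower in MEFs by the antibody (median 0.18), and 21 had less H3.3 at 6 h than at 3 h, beside 24.2% of the genes of at least 100 kb and 38.3% of the 500. That count depends on the scaling, since with tile scaling 0.401% of the 500 were lower. In that list Cadm1 had the highest antibody ratio and Sdk1, a sidekick adhesion molecule, the lowest (-0.20). Of 27 ion channel genes 3 were higher and 1 was lower in MEFs, from Itpr1, an intracellular calcium channel, at -0.49 (0.331 against 0.464) to Cacna2d3, a calcium channel subunit, at 0.43 (0.563 against 0.417), with the potassium channel Kcnd2 at 0.09. Of 16 neurotransmitter receptor genes none passed 1.3-fold between MEFs and ES cells by the antibody. The glutamate receptors Grik4 and Grm7 marked the ends, at -0.12 and 0.37, with Grm5 at 0.08. HA-Macro at 12 h gave more calls in MEFs over ES cells. By it 2 of these 16 genes were higher and 3 lower. Of the ion channel genes 8 were higher and 3 lower, and of the neuronal adhesion genes 8 were higher and 1 lower. Among 20 synaptic genes Ank3, an ankyrin of the axon initial segment, was at -0.38 and Syn3, a synapsin, at 0.45, with Cadps2, a factor of vesicle release, at 0.04. Among 19 axon guidance genes Slit3 was at -0.23, Sema5a at 0.09 and Sema6d at 0.43.

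The remaining lists spread around 0. Transcription factors (32 genes) had an antibody median of -0.08, with 2 higher and 0 lower, and from 3 to 12 h in ES cells 6 were higher and 5 lower. By HA-Macro at 12 h, 4 of them were higher and 6 lower in MEFs than in ES cells. Tcf4 was at -0.36, Zfp385b at -0.09 and Hdac9, a histone deacetylase placed in that list and 1 of its 2 higher genes, at 0.53 by the antibody. The 7 cadherins had a median of 0.04 between MEFs and ES cells, from Cdh13 at -0.20 through Cdh12 at 0.04 to Fat3 at 0.38, and the 6 receptor tyrosine phosphatases -0.12, from Ptprm at -0.29 through Ptprk at -0.16 to Ptprd at 0.30. The 19 genes of common fragile sites had an antibody median of 0.13 with none past the fold, whereas by HA-Macro at 12 h 2 were higher and 1 lower. Their antibody ratios ran from Large, a glycosyltransferase, at -0.21 to Macrod2, a macrodomain protein, at 0.33, with Wwox, an oxidoreductase, at 0.13. The 24 phosphodiesterases and kinases ran from Prkce at -0.46 to Dgki at 0.40 around Pde4d at 0.01. The 6 RNA-binding proteins ran from Rbfox3 at -0.45 through Celf2 at -0.15 to Rbfox1 at 0.23, and from 3 to 12 h in ES cells 3 of them were higher and 1 lower. The 26 matrix and cytoskeleton genes ran from Macf1 at -0.42 through Lama2, a laminin, at 0.06 to Col25a1, a collagen, at 0.44.

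Against their 100 kb flanks more bodies were lower in MacroH2A2 than higher, as among all genes of at least 100 kb apart from HA-Macro ES at 3 h. By the antibody in MEFs the body over flanks ratio had a median of -0.11, with 120 of 500 lower and 24 higher, beside 35.2% lower and 7.8% higher among all genes of at least 100 kb. In ES cells it was -0.03, with 39 of 499 lower and 8 higher, beside 14.1% and 4.71%, and the median was -0.01 with 5 kb around protein-coding start sites left out. HA-Macro at 12 h gave -0.14 in MEFs, with 155 lower and 31 higher beside 41.7% and 9.75%, and -0.12 in ES cells, with 73 lower and 1 higher beside 20.7% and 2.5%. HA-H3.3 at 6 h gave -0.12, with 139 of 499 lower and 40 higher beside 31.0% and 15.1%, and without Dox the median was 0.00, with 4 lower and 0 higher beside 1.36% and 0.439%. At earlier times HA-Macro gave -0.07 at 3 h in ES cells, with 78 lower and 41 higher beside 14.8% and 19.8%, and -0.12 at 6 h, with 55 and 1 beside 13.4% and 2.5%. In MEFs it gave -0.18 at 3 h, with 156 and 27 beside 42.7% and 9.05%, and -0.13 at 6 h, with 134 and 28 beside 37.2% and 8.88%. HA-H3.3 at 3 h gave -0.04, with 46 of 498 lower and 12 higher beside 10.1% and 7.79%. Apart from HA-Macro ES at 3 h, the share of long genes that were lower was below the background in every library. That background is mostly genes of 100 to 300 kb, whose counting error was larger, and its part in these shares was not tested. The medians did not all go with the shares. Genes of 100 to 300 kb had -0.01 and -0.12 for HA-H3.3 at 3 and 6 h. For HA-Macro ES at 3, 6 and 12 h they had 0.05, -0.09 and -0.11. None of these medians was lower than that of the long genes. Lower ones were -0.06 and -0.23 by the antibody in ES cells and MEFs, and -0.32, -0.25 and -0.31 for HA-Macro MEF at 3, 6 and 12 h. Only 145 genes had flanks free of other protein-coding genes, and among them the HA-H3.3 median was 0.04. Among genes of at least 500 kb the HA-Macro MEF 12 h median was -0.03.

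Bodies low by the antibody were mostly low by the tag as well, less so the reverse. In MEFs 107 were lower in both, 89.2% of the 120 and 69.0% of the 155, and the ratios correlated at r = 0.86. In ES cells 30 were shared, 76.9% of the 39 and 41.1% of the 73. Of higher bodies 15 were shared in MEFs, 62.5% of the 24 and 48.4% of the 31, and in ES cells 1 of the 8 by the antibody, which was the 1 by the tag. Such overlaps were not counted among shorter genes, so that they are not shown to be particular to long ones. HA-Macro in MEFs and HA-H3.3 in ES cells did not go together (r = -0.01, n = 499), although body and flanks were the same. Both the variant and the cell type differ in that comparison, and HA-H3.3 was not correlated with MacroH2A2 of ES cells in this measure.

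Tanc2 (chr11:105451300-105790618, plus strand), a postsynaptic scaffold, had 0.254 of MacroH2A2 in its body and 0.721 in its flanks in MEFs, a ratio of -1.51 (-1.61 to -1.4), 0.334 and 0.662 in ES cells, and a ratio of 0.02 without Dox. Dennd1a, an exchange factor for RAB35, had 0.300 and 0.771 in MEFs, a ratio of -1.36 (-1.45 to -1.28), and -1.03 in ES cells. Both were thus low inside and high outside in each cell type. Rgs6 (chr12:83717912-84259755, plus strand), a regulator of G protein signalling, had 0.509 in its body and 0.285 in its flanks in MEFs, a ratio of 0.84 (0.73 to 0.95), and 0.77 in ES cells, with 0.24 without Dox. Syn3 had 0.635 and 0.381, a ratio of 0.74 (0.64 to 0.84), and 1.08 by HA-Macro at 12 h, and Megf11, a cell surface EGF repeat protein, 0.702 and 0.442, a ratio of 0.67. In ES cells Itpr2 was at 0.62 and Synpr, a synaptic vesicle protein, at 0.48.

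Other extremes had gaps or antibody levels far below those without Dox. Rasgrf2, with gaps over 74.7% of its length, was at -1.46 in MEFs, -1.70 in ES cells and -1.93 without Dox. Gm10406 was at 1.64 in MEFs, 1.61 in ES cells and -0.01 without Dox, but its antibody levels were 0.0491 and 0.0644, against 0.531 without Dox, and Gm3739, at -1.77, had 0.0183 and 0.0298, against 0.515. In Gm10406 and Gm3739 the libraries of 400-base intervals were nearly empty and the libraries of 150-base intervals were not.

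Along the gene H3.3 was concentrated near the start. In 10 kb steps the median HA-H3.3 level at 6 h was 0.274 from 20 to 10 kb upstream of the TSS, 0.413 in the last 10 kb before it, 0.500 in the first 10 kb after it and 0.298 in the next 10 kb. Anti-MacroH2A2 in MEFs had its maximum before the TSS, with 0.492, 0.443 and 0.380 over the last 3 of these steps, and rose again beyond the gene end, from 0.408 in the last 10 kb to 0.436 between 10 and 20 kb after it. In ES cells the antibody gave 0.447, 0.471 and 0.374, highest after the TSS, and 0.423 and 0.398 at the gene end. HA-Macro in MEFs at 12 h gave 0.449, 0.394 and 0.327 around the TSS, and 0.348 and 0.394 at the end. In ES cells HA-Macro at 12 h gave 0.396, 0.396 and 0.350, and without Dox the level was 0.404, 0.413 and 0.395.

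**Figure D5:**
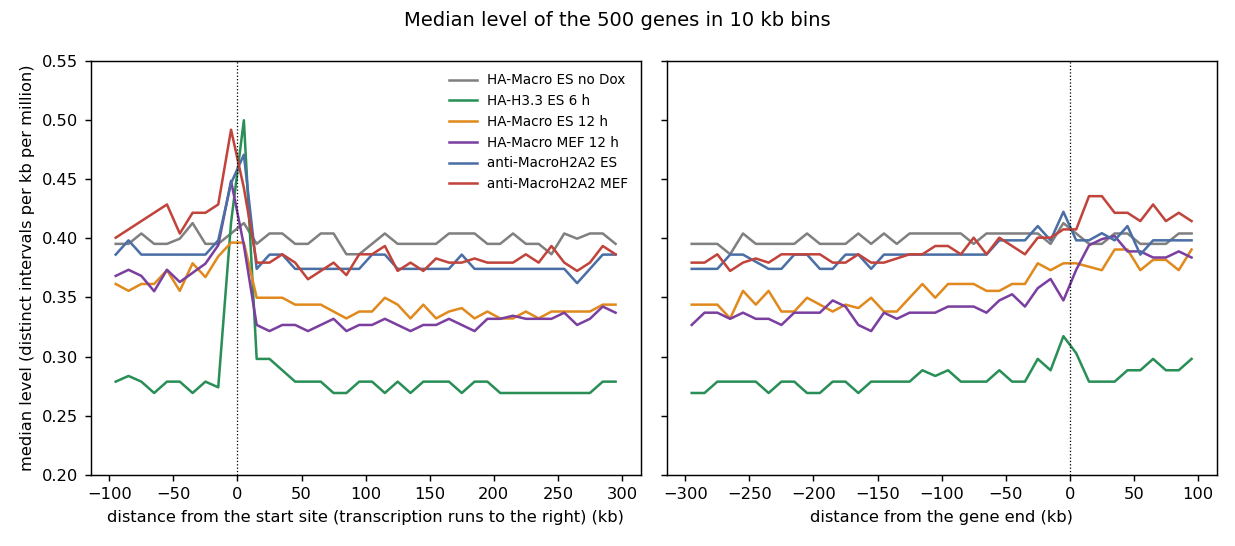
Median level over the 500 genes (vertical axis, distinct intervals per kb per 1000000, from 0.2 to 0.55) in 10 kb bins against distance in kb from the TSS and from the gene end. HA-H3.3 at 6 h peaks at 0.500 in the first 10 kb, and anti-MacroH2A2 in MEFs at 0.492 in the 10 kb before the TSS.

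Between the ends of the bodies the median slopes were small. Each body was cut into 5 equal segments, and the first over the last segment had a median of 0.00 for HA-H3.3 at 6 h. There 92 of 496 bodies were higher and 76 lower, beside 26.2% and 22.9% of the 1768 genes of at least 100 kb with enough intervals. Many shorter genes had too few, and this background ran from 1145 genes (HA-H3.3 at 3 h) to 2246 (HA-Macro ES at 12 h). Anti-MacroH2A2 gave -0.10 in ES cells, with 15 of 496 higher and 61 lower beside 4.68% and 26%, and -0.08 in MEFs, with 33 of 498 higher and 68 lower beside 9.1% and 19.5%. HA-Macro at 12 h gave -0.06 in ES cells, with 31 of 500 higher and 78 lower beside 8.19% and 17.5%, and -0.10 in MEFs, with 54 higher and 116 lower beside 13.3% and 22.0%. Among genes of at least 500 kb the last 2 medians were -0.12 and -0.18. At earlier times over all 500 the HA-Macro medians were 0.00 at 3 h (36 higher and 45 lower, beside 7.53% and 12.3%) and -0.04 at 6 h (36 and 63, beside 9.9% and 15.5%) in ES cells. MEFs gave -0.06 at 3 h (54 and 118, beside 16.6% and 24.4%) and -0.08 at 6 h (50 and 110, beside 14.8% and 24.3%). HA-H3.3 at 3 h gave -0.05, with 22 of 494 higher and 61 lower beside 8.38% and 18.1%, and no Dox -0.03, with 3 and 8 of 500 beside 2.63% and 5.36%.

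Single genes had steep slopes of H3.3. Dlc1, a GTPase-activating protein, was at -2.47 (-2.69 to -2.25), Etl4 at -2.43, 2010111I01Rik at -2.17 and Dlgap1, a postsynaptic scaffold, at -1.99, with H3.3 toward the gene end. Arl15, an ARF-like GTPase, was at 1.58 (1.4 to 1.76), Fam110b at 1.52, Arhgap26 at 1.42 and Btbd3 at 1.41, with H3.3 toward the start. HA-Macro ES at 3 h gave -1.43, -1.41, -1.04 and -0.93 for the first 4 and 0.73, 1.06, 0.46 and 0.41 for the others, the same direction in all 8. The 8 were picked by their H3.3 slope, and the 3 h library is the one that stands apart, whose part in this was not tested. At 6 h HA-Macro ES gave -0.70, -0.64, -0.78 and -0.97 for the first 4 and 0.57, 0.35, 0.89 and 0.16 for the others. At 12 h it gave -0.70, -0.35, -0.49 and -0.97, and 0.53, 0.07, 0.77 and -0.14, so that Btbd3 no longer had the direction of H3.3. Anti-MacroH2A2 in MEFs gave -0.05 to 0.02 for the first 4 and -0.54 to -0.10 for the others, so that steady-state MacroH2A2 in MEFs did not share the slope. Both the variant and the cell type differ from those of HA-H3.3 in that comparison, and anti-MacroH2A2 in ES cells is not given for these genes.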

How the data were processed

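ChIP-Seq with an HA or an anti-MacroH2A2 antibody was analysed in 11 libraries, 1 per condition. The authors mapped reads to mm9 with Bowtie 1.0, as their processing notes give it, allowing 1 mismatch and placing reads with several matches at 1 of them at random. Identical reads were collapsed with their occurrences kept, and each was extended 3′, to 150 bp by the paper's text. The deposited files hold these intervals, 150 bp long for HA-Macro but 400 bp long for HA-H3.3 and for anti-MacroH2A2. For each anti-MacroH2A2 library 2 replicates are said to be combined, and its Dox state is given differently in the sources and was left aside.

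Midpoints of distinct intervals were counted per kb per 1000000 on chromosomes 1 to 19 over bodies, 100 kb flanks and 5 equal segments of each body. Ratios of 2 counts are on the log2 scale, with exact (Clopper-Pearson) 95% intervals, for at least 200 summed intervals. No test was run. Named are the 4 highest and 4 lowest genes in the ES 12 h over 3 h, anti-MacroH2A2 MEF over ES, body over flanks (anti-MacroH2A2, MEFs and ES cells) and first over last segment (HA-H3.3, 6 h) ratios, the 5 longest, and the ends and middle of each list, of which 1 gene is not reported here. The members and lists were chosen with earlier results of these data known. Sequence windows, none on chromosome 18, came from the mm9 genome and genes from GENCODE vM1. Counting was tested on simulated data. Python 3.11.15, numpy 2.4.6, pandas 2.3.3 and scipy 1.17.1 were used.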

Additional observations from a re-analysis of the deposited data

Results flagged for a closer look

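Ranbp17 had ratios of opposite sign in the 2 cell types over the same times, but passed 1.3-fold in ES cells only. Its HA-Macro 12 h over 3 h log2 ratio was -1.065 in ES cells and 0.13 (0.02 to 0.25) in MEFs, with 1 library per time in each, and the difference was not tested. With 6 h as the early time the ES ratio was -0.18, so that passing the fold rested on the 3 h library, which stands apart. The 66 bodies lower from 3 to 12 h in ES cells had a median of 0.02 in MEFs.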

How the results depend on the processing

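No paired analysis was possible because each condition had 1 library, so that leaving out a replicate was not run. Of the percentages of bodies past the fold 87 changed by more than 1.5 times, or to or from 0, and 407 did not. Small medians changed sign under some alternatives: they ran from -0.06 to 0.06 for ES 12 h over 3 h, from -0.01 to 0.00 for ES 12 h over 6 h, from -0.08 to 0.02 for MEF over ES at 12 h, from -0.03 to 0.11 for the antibody, from -0.16 to 0.04 for HA-H3.3 over flanks and from -0.07 to 0.01 for its first over its last segment. The cause was not tested beyond what each alternative changes by construction. Leaving out the chromosome 3 genes, leaving out genes with 5 or more inner start sites or over 5% gaps, leaving gaps out of lengths and dividing by the ratio without Dox were chosen after seeing the data.

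Scaling to the median 100 kb tile gave 2.0% higher for ES 12 h over 3 h, 10.6% higher and 11.4% lower for ES 12 h over no Dox, 9.02% lower for anti-MacroH2A2 MEF over ES, and 9.42% higher and 0.401% lower for HA-H3.3 6 h over 3 h. With 6 h as the early time 0.0% were higher and 0.0% lower. Counting repeats gave 0.2% higher for ES 12 h over 6 h and 2.0% higher over flanks for HA-Macro ES 12 h.

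A fold of 1.2 gave, higher and lower, 19.2% higher for ES 12 h over 3 h, 0.2% and 0.6% for ES 12 h over 6 h, 10.6% and 39.4% for ES 12 h over no Dox, 0.8% and 0.2% for MEF 12 h over 3 h, 21.2% and 24.8% for MEF over ES at 12 h, 16.4% and 14.8% for the antibody, and 3.01% and 61.1% for HA-H3.3. Over flanks it gave 12.2% higher for HA-H3.3, 4.61% and 15% for the antibody in ES cells, 10.4% higher in MEFs, 1.6% and 27.0% for HA-Macro ES 12 h and 12.6% higher for MEF 12 h. For the first over the last segment it gave 25.4% lower for HA-H3.3, 6.85% and 23%, 12.9% and 24.9%, 13.6% and 26%, and 18.4% higher, in the same order.

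A fold of 1.5 gave 0.4% and 6.4% for ES 12 h over 3 h, 1.0% and 3.8% over no Dox, 7.4% and 3.8% for MEF over ES at 12 h, 1.20% and 0.802% for the antibody, and 0.401% and 3.61% for HA-H3.3. Over flanks it gave 3.81% and 18.0% for HA-H3.3, 0.601% and 2.81% for the antibody in ES cells, 0.8% and 11.4% in MEFs, 5.2% lower for HA-Macro ES 12 h, and 0.8% and 19.0% for MEF 12 h. For the first over the last segment it gave 9.68% and 8.67%, 0.605% and 4.03%, 2.21% and 5.22%, 1.6% and 6.8%, and 5.0% and 12.4%.

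Genes of at least 200 kb gave 19.9% lower for ES 12 h over 3 h, 0.110% lower over 6 h, 12.5% lower for the antibody and 3.90% higher for HA-H3.3, and over flanks 3.01% higher for the antibody in ES cells and 1.33% for HA-Macro ES 12 h. Genes of at least 500 kb gave 7.53% lower for ES 12 h over 3 h, 1.61% higher over no Dox, 0.538% lower for the antibody and 0.538% higher for HA-H3.3, and over flanks 4.84% lower for the antibody in ES cells and 0.0% higher for HA-Macro ES 12 h. Flanks free of other genes gave 6.90% lower for HA-H3.3, 3.45% lower for the antibody in ES cells, 0.690% higher in MEFs, 0.0% higher and 8.97% lower for HA-Macro ES 12 h, and 0.690% higher for MEF 12 h. Without gaps HA-Macro ES 12 h had 0.0% higher over flanks, and divided by the ratio without Dox the antibody in ES cells had 2.40% higher.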
